A study of Homo sapiens with 6 samples.

Results

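The genes described here are 36 genes of the unfolded protein response and of protein folding in the endoplasmic reticulum (ER), out of 62656 genes in the tables. They were taken by name, and all 36 were found by symbol. They are described below by role. The measurements are RNA sequencing of OVCAR5, an established human ovarian cancer cell line, after 3 days of exposure. Cells of one arm received 100 nM NTX301, a DNA hypomethylating agent. Cells of the control arm received dimethyl sulfoxide (DMSO). Each arm had 3 libraries of this 1 line. The labels do not say that they came from separate cultures, so a p-value here reflects variation among libraries, which may be technical.

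The ER is where secreted and membrane proteins are threaded through a membrane channel, folded by chaperones and joined by disulfide bonds. When unfolded protein builds up, 3 membrane sensors respond: IRE1 (the product of ERN1), PERK (EIF2AK3) and ATF6. IRE1 splices the XBP1 messenger RNA, ATF6 is cut to release a transcription factor, and both routes raise genes for chaperones and for ER-associated degradation, which draws misfolded protein back into the cytosol. PERK slows translation by phosphorylating eIF2 alpha, and its downstream factors are ATF4 and CHOP (DDIT3). The pathway is best known from secretory cells, which carry a heavy load of new protein.

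With NTX301, most genes of ER folding were lower. Of 35 members expressed enough to be tested, 27 fell and 3 rose (edgeR quasi-likelihood test with Benjamini-Hochberg adjustment over all 19029 genes tested, threshold 0.05). Over all genes tested, 35.1% fell and 35.4% rose, 70.5% in either direction. SDF2L1, CRELD2, ATF6B, P4HB and HSPA5 had the lowest log2 fold changes, between -1.15 and -1.0. The members that rose were SELENOS, ERN1 and SEC61A1. The median log2 fold change of the 35 members was -0.45, beside a median near 0 over all genes tested. By 1.5-fold or more, 15 members fell and 0 rose, against 19.0% of all genes lower and 21.4% higher by that rule. In 30 of the 35 members every NTX301 library lay on 1 side of every DMSO library, as it did in 73.7% of all genes tested.

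These counts depend on how libraries are scaled. Fold changes are relative to the typical gene, because libraries were scaled by the trimmed mean of M-values (TMM), and in bulk samples such as these, fewer cells of a type and less RNA per cell cannot be told apart. Without a scaling factor the median log2 fold change of all genes was 0.21, and 23 members fell and 9 rose, with 6 lower by 1.5-fold or more. Over all genes tested at that scaling, 24.9% fell, 46.2% rose and 12.3% were lower by 1.5-fold or more. On log2(TPM + 1), where TPM is the share of transcripts after division by length, scaled to a fixed total, 22 fell and 7 rose, with 5 lower by 1.5-fold or more. Of all genes on that scale, 22.5% fell, 45.2% rose and 8.94% were lower by 1.5-fold or more. Of the 30 calls, 22 kept direction and significance under all 14 alternatives, 20 of them lower (the others were SELENOS and ERN1). The share of all called genes that did so was not computed, so this count has no background. In TPM, 23 of the 27 members that fell had all NTX301 libraries below all DMSO libraries, 3 overlapped and 1, DNAJB11, lay above. The 5 members that were not called all lay above in TPM. The share of all genes tested whose arms lie apart in TPM was not computed. On log2(TPM + 1) the median difference of all genes tested was 0.17. In 16 members another tested gene lies on the other strand, among them CRELD2 (ALG12) and SEC61A1 (RUVBL1 and MGLL), and since the strand setting is not given, reads of such pairs may be mixed.

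**Figure D1:**
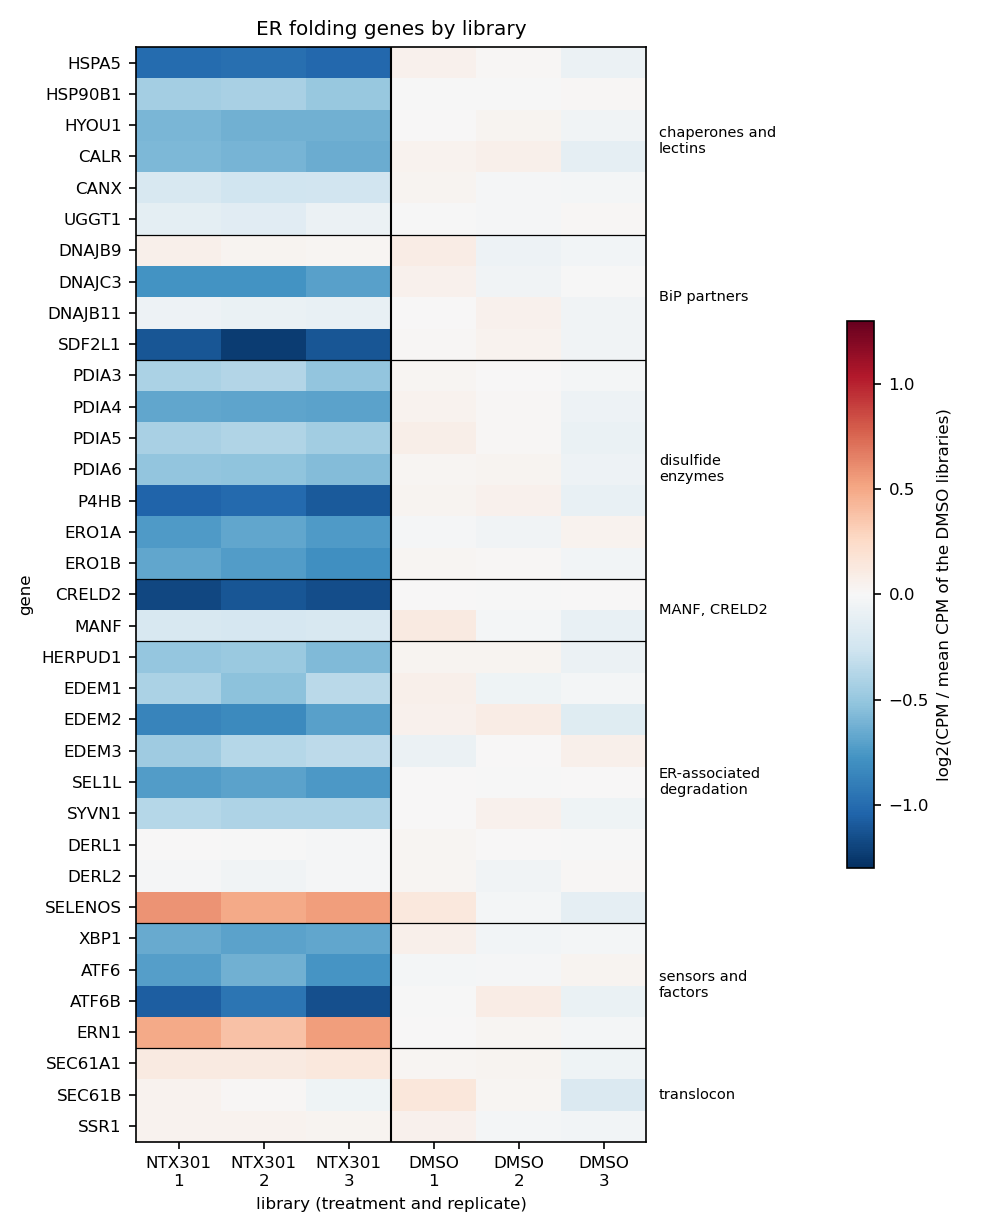
Each row is a gene and each column a library, with the 3 NTX301 libraries left of the 3 DMSO libraries; colour gives log2 of CPM (counts relative to the TMM-scaled library size) over the mean of the DMSO libraries. The NTX301 columns are blue in most rows of the chaperones, disulfide enzymes and degradation genes, red for SELENOS and ERN1, and near white for DNAJB9, DERL1, DERL2 and the translocon genes.

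The libraries held 23194160 to 23842859 estimated counts with NTX301 and 22131175 to 25743732 with DMSO. In a principal component analysis the arms lay apart on the leading axis (86.47% of variance), and DMSO replicate 3 stood apart from the other DMSO libraries on the next, which held 4.31%. Without that library 27 members were lower and 3 higher. Of 9 epithelial markers, 7 were at 1 TPM or more on average in both arms, while WT1 and MUC16 were below that level. Their summed level was 2644 to 2721 TPM with NTX301 and 4361 to 4541 TPM with DMSO, mostly from KRT8 (means of 1180 TPM with NTX301 and 2159 TPM with DMSO) and KRT18 (980 TPM with NTX301 and 1794 TPM with DMSO). EPCAM and KRT19 also had lower means with NTX301, while 3 of the 7 went the other way. KRT7 averaged 286 TPM with NTX301 and 104 TPM with DMSO, PAX8 9.13 TPM with NTX301 and 5.88 TPM with DMSO, and CDH1 4.93 TPM with NTX301 and 3.36 TPM with DMSO. Of 6 leukocyte markers, PTPRC averaged 0.04 TPM with NTX301 and 0 TPM with DMSO, and the summed level of 80.4 to 87.5 TPM with NTX301 and 44.9 to 51.4 TPM with DMSO lay mostly in CD68 and CD14. The 6 fibroblast markers summed to 5.32 to 5.72 TPM with NTX301 and 1.4 to 1.88 TPM with DMSO, and the 4 endothelial markers to 2.12 to 2.38 TPM with NTX301 and 1.47 to 1.64 TPM with DMSO. The part of these shifts in the results below was not tested.

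Promoter sequences of members were examined for the known response elements of the pathway, as a description without a test. The ER stress element (ERSE) is CCAAT and CCACG with 9 bases between them. ERSE-II is ATTGG and CCACG with 1 base between them, and the unfolded protein response element (UPRE) is TGACGTGG. All were searched on both strands of the 300 bases from 250 before to 50 after each start in RefSeq (GRCh38.p14). Each of ERSE and ERSE-II contains CCACG, and UPRE contains its reverse complement, so a bare CCACG match overlaps all of them. The table held 33 of the 36 members (DERL1, DERL3 and PDIA3 were not matched). An exact ERSE stood in 7 of these 33 promoters, or 21.2%, and in 22 of all 27305 promoters, or 0.0806%. The 7 were HSPA5, HSP90B1, CALR, CANX, ERO1B, CRELD2 and XBP1. ERSE-II stood in 3 members (HYOU1, SDF2L1 and HERPUD1), against 0.0549% of all promoters. UPRE stood in HYOU1, where it overlaps an ERSE-II, against 0.795% of all promoters. CCACG alone stood in 63.6% of members, 69.2% of the promoters of further ER pathway genes, 48.6% of those of tested genes and 37.9% of all promoters.

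The promoters of 5 genes are shown for the comparison of their letters. HSPA5 and CRELD2 hold an ERSE and SDF2L1 an ERSE-II, and all of these genes fell. P4HB fell about as far and SELENOS rose, and neither holds ERSE, ERSE-II or UPRE in this window. Capitals mark the outer 5 bases on each side of an ERSE or ERSE-II.
HSPA5 (chr9:125241294-125241593, minus strand): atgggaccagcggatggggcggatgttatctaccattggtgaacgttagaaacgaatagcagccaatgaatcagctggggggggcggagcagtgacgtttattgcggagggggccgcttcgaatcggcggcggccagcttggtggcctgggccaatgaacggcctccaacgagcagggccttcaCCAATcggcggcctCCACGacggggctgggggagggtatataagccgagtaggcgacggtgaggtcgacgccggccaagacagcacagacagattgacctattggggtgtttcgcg
CRELD2 (chr22:49918384-49918683, plus strand): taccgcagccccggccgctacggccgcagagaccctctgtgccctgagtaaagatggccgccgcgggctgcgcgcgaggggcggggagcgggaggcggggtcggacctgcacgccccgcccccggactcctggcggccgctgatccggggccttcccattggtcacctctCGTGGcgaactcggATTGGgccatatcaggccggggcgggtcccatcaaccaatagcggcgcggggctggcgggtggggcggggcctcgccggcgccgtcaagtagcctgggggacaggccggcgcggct
SDF2L1 (chr22:21642052-21642351, plus strand): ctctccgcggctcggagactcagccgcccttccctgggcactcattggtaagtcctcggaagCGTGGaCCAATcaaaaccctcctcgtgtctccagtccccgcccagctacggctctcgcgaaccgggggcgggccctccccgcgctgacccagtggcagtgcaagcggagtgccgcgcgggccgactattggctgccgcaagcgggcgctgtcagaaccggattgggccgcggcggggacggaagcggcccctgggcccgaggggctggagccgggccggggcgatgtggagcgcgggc
P4HB (chr17:81860486-81860785, minus strand): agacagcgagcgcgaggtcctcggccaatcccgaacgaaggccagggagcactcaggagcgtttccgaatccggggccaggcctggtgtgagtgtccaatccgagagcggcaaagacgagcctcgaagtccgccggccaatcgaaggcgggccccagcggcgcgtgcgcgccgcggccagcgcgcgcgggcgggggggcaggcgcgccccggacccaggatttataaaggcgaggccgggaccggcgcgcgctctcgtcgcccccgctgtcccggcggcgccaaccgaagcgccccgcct
SELENOS (chr15:101277436-101277735, minus strand): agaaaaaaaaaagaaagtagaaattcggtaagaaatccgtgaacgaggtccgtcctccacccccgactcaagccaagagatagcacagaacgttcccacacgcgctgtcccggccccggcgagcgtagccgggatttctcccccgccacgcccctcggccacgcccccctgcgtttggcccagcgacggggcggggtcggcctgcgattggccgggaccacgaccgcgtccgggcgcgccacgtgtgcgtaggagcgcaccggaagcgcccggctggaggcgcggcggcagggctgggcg

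The ERSE of HSPA5 begins 66 bases before the start, on the coding strand, and that of CRELD2 begins 80 bases before it, on the other strand. The ERSE-II of SDF2L1 lies farther out, 188 bases before the start. All 7 members with an ERSE fell, with log2 fold changes from -1.15 to -0.24 and a median of -0.68. Of the 26 tested members without one, 19 fell and 3 rose, with a median of -0.42. Outside the members, 8 tested genes had an ERSE, of which 4 fell and 2 rose. Their median was -0.11, with a range from -1.08 to 6.68. Of all tested genes with a promoter but no ERSE, 37.4% fell, with a median of 0.01. Whether the element goes with the fall was not tested. None of 133 promoters of further ER pathway genes held an exact ERSE or ERSE-II in this window, while UPRE stood in 10 of them, or 7.52%, against 3.03% of members. Member promoters had a median of 28 CpG sites, against 25 for promoters of tested genes. The element was first defined from genes of this kind, and a match is a run of letters, not a measured site.

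The sensors and transcription factors of the pathway moved in both directions. XBP1, the transcription factor made after IRE1 splicing (ENSG00000100219.17, chromosome 22, 28794555 to 28800597 in GENCODE 29, GRCh38), had 41.6, 40.5 and 41 CPM with NTX301, against 68.5, 63.8 and 64.5 CPM with DMSO. All NTX301 libraries lay below all DMSO libraries (log2 fold change -0.68 ± 0.04 SE, edgeR adjusted p = 6.6e-08). Gene totals do not separate spliced from unspliced XBP1. ATF6B, a close relative of ATF6 that is cut in the same way (chromosome 6, 32115264 to 32128253), had 44, 47.9 and 42 CPM with NTX301, against 92.1, 98.9 and 87.1 CPM with DMSO. It was near 2-fold lower in every NTX301 library (log2 -1.06 ± 0.06, edgeR adjusted p = 1.8e-08), and it overlaps TNXB on the same strand. ERN1, which encodes the sensor IRE1 (ENSG00000178607.17, chromosome 17, 64039142 to 64130819), went the other way. It had 46.3, 42.7 and 47.9 CPM with NTX301, against 32.8, 33.5 and 32.2 CPM with DMSO, and the groups did not overlap (log2 0.47 ± 0.05, edgeR adjusted p = 7.4e-06).

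ATF6, the sensor that is cut in the Golgi to free a transcription factor (ENSG00000118217.7, chromosome 1, 161766294 to 161964070), had 48.9, 52.2 and 47.1 CPM with NTX301, against 78.8, 79.8 and 82.5 CPM with DMSO. Its counts fell (log2 -0.70 ± 0.05, edgeR adjusted p = 7.7e-08), but its TPM moved far less, at 25.5 ± 1.08 with NTX301 and 28.8 ± 1.43 with DMSO (SD, n = 3 each). On log2(TPM + 1) the difference was -0.17, and on log2(TPM + 0.1) it was -0.18 and missed the threshold (limma adjusted p = 0.0513, range over the alternatives 2.1e-27 to 0.0513). Part of this gap is the scaling, since without a scaling factor the log2 fold change in counts was -0.50. TPM also divides by length, and the mean length of ATF6 transcripts, weighted by their estimated abundance, differed between arms. With DMSO it was 4695, 4606 and 4678 bases, and with NTX301 it was 3781, 3715 and 3777 bases. That is 19.3% shorter, and 1.34% of tested genes had a lower ratio of mean lengths. The tables list 10 transcripts for ATF6 and give no value for any of them alone. As a share of ATF6 and ATF6B together in TPM, ATF6 held 43.1% ± 0.238 with NTX301 and 32.2% ± 1.66 with DMSO (SD, n = 3 each). This share includes the division by the shorter ATF6 length. In CPM, which has no such division, ATF6 averaged 49.4 with NTX301 and 80.4 with DMSO. ATF6B averaged 44.6 CPM with NTX301 and 92.7 CPM with DMSO.

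Among the tested members, 4 had mean transcript lengths that did not overlap between the arms and differed by at least 5% (11.4% of members, against 7.59% of all tested genes). Besides ATF6 they were ERO1A, SSR1 and DERL1. ERO1A averaged 3355 ± 102 bases with NTX301 and 3533 ± 13.6 bases with DMSO, and SSR1 averaged 2780 ± 40.3 bases with NTX301 and 2981 ± 80 bases with DMSO (SD, n = 3 each). DERL1 was longer, at 2250 ± 69.5 bases with NTX301 and 2132 ± 30.1 bases with DMSO. For these genes a change in counts and a change in TPM are different quantities.

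**Figure D2:**
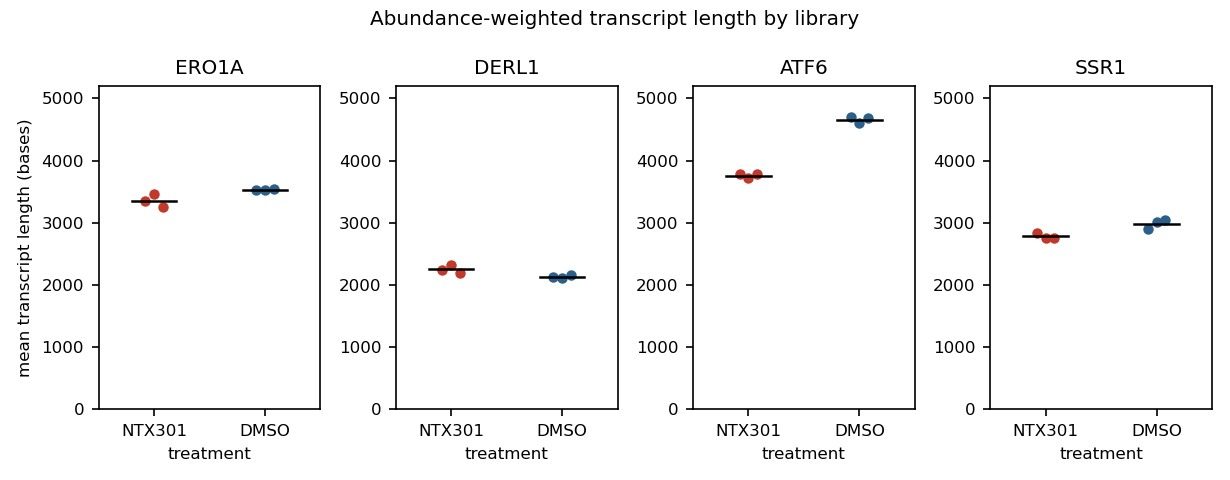
Abundance-weighted mean transcript length in bases (vertical axis, from 0) for the 4 genes whose arms did not overlap and differed by at least 5%; points are libraries, bars are means of 3. ATF6 shows the widest gap of these, with NTX301 libraries at 3715 to 3781 bases and DMSO libraries at 4606 to 4695 bases.

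All 6 chaperones and lectin chaperones fell, with log2 fold changes from -1.0 to -0.12, against 35.1% of all genes tested. Without a scaling factor and on log2(TPM + 1), 4 of the 6 were lower, against 24.9% and 22.5% of all genes. HSPA5, which encodes BiP, the central Hsp70 chaperone of the ER and the regulator of all 3 sensors (ENSG00000044574.9, chromosome 9, 125234853 to 125241330), had 622, 630 and 613 CPM with NTX301, against 1294, 1253 and 1183 CPM with DMSO. The arms were far apart, at log2 -1.0 ± 0.04 (edgeR adjusted p = 1.9e-09). On the scale without a factor it was -0.79. HYOU1, the nucleotide exchange factor of BiP, had 382, 375 and 376 CPM with NTX301, against 580, 593 and 560 CPM with DMSO. CALR, the soluble lectin chaperone calreticulin, had 719, 707 and 689 CPM with NTX301, against 1114, 1126 and 993 CPM with DMSO. Both changed by -0.61 on the log2 scale, with no overlap between arms. HSP90B1, the ER Hsp90 known as GRP94, changed less, at -0.45 ± 0.04, with 965 ± 24.5 CPM with NTX301 and 1320 ± 10.1 CPM with DMSO (SD, n = 3 each).

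The membrane lectin calnexin and the folding sensor of glycoproteins changed least in this group. CANX, which encodes calnexin, had 1528, 1477 and 1482 CPM with NTX301, against 1806, 1749 and 1740 CPM with DMSO (log2 -0.24 ± 0.04, edgeR adjusted p = 1.6e-04). In TPM its arms overlapped, at 760 ± 27.8 with NTX301 and 772 ± 5.73 with DMSO (SD, n = 3 each), and without a scaling factor it was not past the threshold (edgeR adjusted p = 0.4343, range over the alternatives 1.3e-10 to 0.7092). UGGT1, which adds glucose back to misfolded glycoproteins, had a log2 fold change of -0.12 ± 0.04 (edgeR adjusted p = 0.0116), and 0.09 without a scaling factor, so its direction rests on the scaling. It also missed the threshold among genes of at least 5 CPM (edgeR adjusted p = 0.0888, range over the alternatives 0.0055 to 0.2433).

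BiP works with cochaperones, and these split. SDF2L1, which acts in a complex with the cochaperone ERdj3 (chromosome 22, 21642261 to 21644298), had 5.36, 4.92 and 5.37 CPM with NTX301, against 11.7, 12 and 11.2 CPM with DMSO. It had the lowest log2 fold change of the members together with CRELD2, at -1.15 ± 0.09 (edgeR adjusted p = 3.0e-07). DNAJC3, the cochaperone p58IPK, had 123, 123 and 129 CPM with NTX301, against 219, 205 and 210 CPM with DMSO (log2 -0.76 ± 0.04). DNAJB9, the cochaperone ERdj4 that brings BiP to IRE1, had 22.1, 21.6 and 21.4 CPM with NTX301, against 22.5, 20.2 and 20.6 CPM with DMSO. Those ranges overlap, and it was not called (log2 0.04 ± 0.06, edgeR adjusted p = 0.5684), although it was higher without a scaling factor (log2 0.25, edgeR adjusted p = 0.0023, range over the alternatives 0.0023 to 0.9938). The median of all genes tested at that scaling was 0.21. DNAJB11, the cochaperone ERdj3, had 160, 158 and 157 CPM with NTX301, against 168, 175 and 163 CPM with DMSO. Its edgeR adjusted p was 0.0494, and the call was lost in 5 of the 6 fits that left out a library. In TPM it was higher with NTX301, at 190 ± 4.37, against 175 ± 6.41 with DMSO (SD, n = 3 each), so no direction holds for it.

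All 7 enzymes of disulfide bond formation fell, and all 7 also fell without a scaling factor and on log2(TPM + 1). Of all genes tested, 35.1% fell, with 24.9% lower without a scaling factor and 22.5% lower on log2(TPM + 1). P4HB, protein disulfide isomerase itself (ENSG00000185624.16, chromosome 17, 81843159 to 81860694), had 513, 522 and 496 CPM with NTX301, against 1079, 1095 and 987 CPM with DMSO. Every NTX301 library lay far below every DMSO library (log2 -1.05 ± 0.05, edgeR adjusted p = 2.8e-09). PDIA4, the isomerase ERp72, had 356, 354 and 353 CPM with NTX301, against 589, 578 and 544 CPM with DMSO (log2 -0.69 ± 0.04). The other isomerases changed less: PDIA6 by -0.54 ± 0.04, PDIA3 (ERp57, the partner of calnexin and calreticulin) by -0.43 ± 0.04 and PDIA5 by -0.42 ± 0.05 on the log2 scale. Both oxidases that recharge protein disulfide isomerase fell to a like extent. ERO1A had 109, 113 and 109 CPM with NTX301, against 179, 175 and 187 CPM with DMSO (log2 -0.71 ± 0.04), and ERO1B 26.8, 25.8 and 24.6 CPM with NTX301, against 43.4, 43.1 and 41.7 CPM with DMSO (log2 -0.73 ± 0.05). ERO1A made up 84.3% ± 1.76 of their summed TPM with NTX301 and 82.9% ± 1.08 with DMSO (SD, n = 3 each), a difference within the spread between libraries. The pseudogene PDIA3P1 held 1705 counts with NTX301 and 1985 with DMSO, 3.01% of the counts of PDIA3, with which it may share reads.

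The 2 small secreted proteins of the response differed in size of change. CRELD2, an ER protein released under stress (ENSG00000184164.15, chromosome 22, 49918167 to 49927540), had 39.7, 41.7 and 40.8 CPM with NTX301, against 90.5, 90.3 and 90.4 CPM with DMSO. The arms were tight and apart (log2 -1.15 ± 0.04, edgeR adjusted p = 4.1e-10). MANF, a neurotrophic factor held in the ER, had 67.5, 66.9 and 67.3 CPM with NTX301, against 84.1, 76.7 and 72.6 CPM with DMSO (log2 -0.21 ± 0.05, edgeR adjusted p = 0.0032). Without a scaling factor its log2 fold change was -0.00 and it was not called (edgeR adjusted p = 0.9322). Its TPM ranges overlapped, at 153 ± 4.5 with NTX301 and 153 ± 7.59 with DMSO (SD, n = 3 each).

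Of 9 tested genes of ER-associated degradation, 6 fell and 1 rose (6 and 3 without a scaling factor). That is 66.7% lower and 11.1% higher, against 35.1% and 35.4% of all genes tested (24.9% and 46.2% without a scaling factor). SEL1L, the scaffold of the HRD1 ligase complex, had 206, 211 and 203 CPM with NTX301, against 341, 340 and 343 CPM with DMSO (log2 -0.72 ± 0.04, edgeR adjusted p = 6.2e-09). SYVN1, the ubiquitin ligase HRD1 itself, changed by -0.39 ± 0.04 on the log2 scale, and HERPUD1, which organises the complex, by -0.52 ± 0.05. The mannosidase-like EDEM proteins mark glycoproteins for disposal. EDEM2 had 23.5, 24 and 26.1 CPM with NTX301, against 44.3, 45.4 and 38.2 CPM with DMSO (log2 -0.80 ± 0.07), while EDEM1 and EDEM3 changed by -0.43 ± 0.05 and -0.39 ± 0.05. As a share of the 3 EDEM genes in TPM, EDEM2 held 34.3% ± 0.474 with NTX301 and 40.2% ± 2.18 with DMSO (SD, n = 3 each). EDEM1 missed the threshold on log2(TPM + 0.1) (limma adjusted p = 0.0588, highest over the alternatives), and EDEM3 on both TPM scales (highest limma adjusted p = 0.0738).

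The derlins, which form the exit channel of the HRD1 complex, were not called. DERL1 had 184, 182 and 181 CPM with NTX301, against 186, 183 and 182 CPM with DMSO. DERL2 had 38.7, 38 and 38.8 CPM with NTX301, against 40, 38 and 39.5 CPM with DMSO. Both sets overlap on the CPM scale, and both were higher without a scaling factor (log2 0.20 and 0.18). The median of all genes tested at that scaling was 0.21, so neither exceeded the typical gene. DERL3, known from secretory cells such as plasma cells, had 1 count over the NTX301 libraries and 2 over the DMSO libraries and was not tested. SELENOS, a selenoprotein that links derlins to the p97 ATPase (ENSG00000131871.15, chromosome 15, 101270817 to 101277500), had 75.2, 70.7 and 73 CPM with NTX301, against 55, 49.2 and 46.2 CPM with DMSO. It rose in all 3 NTX301 libraries (log2 0.54 ± 0.06, edgeR adjusted p = 6.0e-06), and by 0.75 without a scaling factor.

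The 3 translocon genes stayed near the typical gene. SEC61A1, the pore of the channel, had 397, 397 and 400 CPM with NTX301, against 371, 373 and 351 CPM with DMSO (log2 0.12 ± 0.04, edgeR adjusted p = 0.0124). The call was lost with no filter on low counts (edgeR adjusted p = 0.0853, range over the alternatives 6.4e-06 to 0.0853). SEC61B, a small subunit of the pore, had 47.8, 46.7 and 44.5 CPM with NTX301, inside the range of 51.1, 47 and 40.7 CPM with DMSO. SSR1, a subunit of the translocon-associated TRAP complex, had 240, 240 and 238 CPM with NTX301, against 242, 229 and 227 CPM with DMSO, and was not called. All 3 were called higher without a scaling factor and on log2(TPM + 1). Of all genes tested, 46.2% and 45.2% were higher at these settings, with medians of 0.21 and 0.17.

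**Figure D3:**
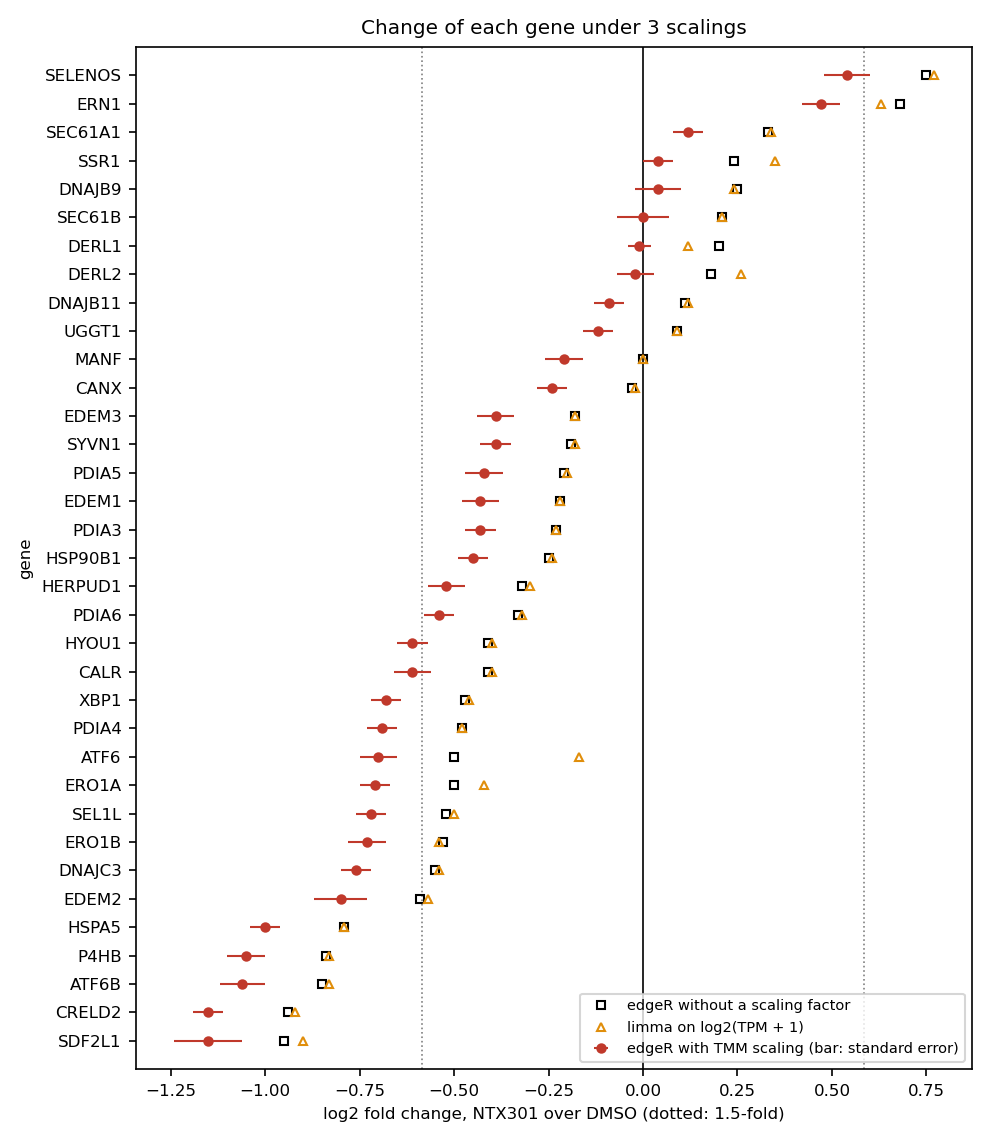
Log2 fold change of each tested gene, NTX301 over DMSO (horizontal axis, dotted lines at 1.5-fold), from edgeR with TMM scaling (red, bars are standard errors), edgeR without a scaling factor (squares) and limma on log2(TPM + 1) (triangles). The squares lie to the right of the red points by about the 0.21 that separates the scalings, which moves UGGT1 and DNAJB11, among others, across 0, while ATF6 stands out by a triangle at -0.17 against -0.70.

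In levels per transcript, the members spanned a wide range, and the treatment changed their order. With DMSO the highest were CALR at 970 ± 51.1 TPM, PDIA3 at 848 ± 5.39 TPM, HSPA5 at 819 ± 16.4 TPM and HSP90B1 at 813 ± 25.5 TPM (SD, n = 3 each). Among these 4, the ranges of HSPA5 and HSP90B1 overlapped with DMSO, while the other neighbours did not. With NTX301 the highest were CANX at 760 ± 27.8 TPM, CALR at 735 ± 9.88 TPM and PDIA3 at 723 ± 11.2 TPM, and neighbours in this order overlapped. HSPA5 had 467, 470 and 483 TPM with NTX301, against 830, 827 and 800 TPM with DMSO, which placed the gene at rank 5 with NTX301 and rank 3 with DMSO. ERN1 was the lowest member above 1 TPM with DMSO, at 11.9 ± 0.976 TPM with NTX301 and 7.33 ± 0.207 TPM with DMSO (SD, n = 3 each). The 36 genes together held 6524, 6447 and 6654 TPM with NTX301, against 7996, 8113 and 7866 TPM with DMSO, or 0.654% and 0.799% of all transcripts. By role, the summed TPM was 0.73 times the DMSO level for the sensors and factors, 0.738 times for the disulfide enzymes and 0.789 times for the chaperones. It was 0.801 times for MANF and CRELD2, 0.949 times for the BiP cochaperones, 1.02 times for the degradation genes and 1.23 times for the translocon genes. On log2(TPM + 1) the median difference of all genes tested was 0.17. Sums of TPM follow the few most abundant genes of a group.

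**Figure D4:**
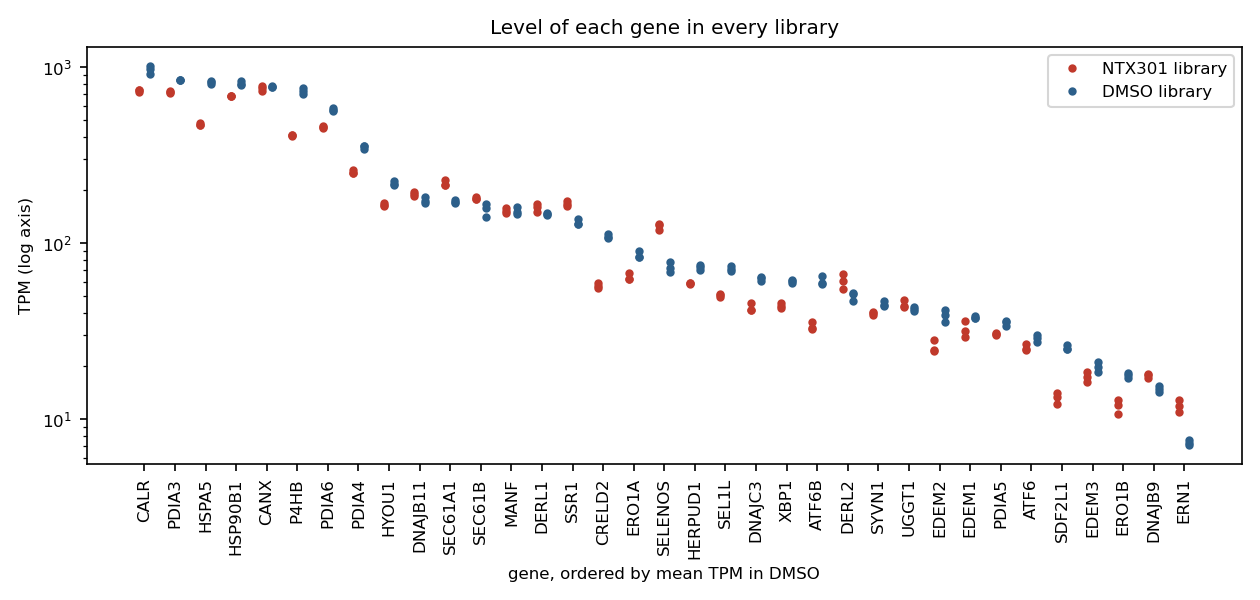
TPM of each gene in every library on a log axis, ordered by the DMSO mean; red points are NTX301 libraries and blue points, to their right, DMSO libraries. HSPA5, P4HB, CRELD2 and SDF2L1 show clear gaps with NTX301 below, SELENOS and ERN1 with NTX301 above, and CANX and MANF overlap; DERL3, under 1 TPM, is not drawn.

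Genes of the PERK branch moved in both directions. Of 14 listed genes, 7 rose and 5 fell, with a median log2 fold change of 0.20 (8 and 5 without a scaling factor, median 0.41). That is 50% higher and 35.7% lower, against 35.4% and 35.1% of all genes tested (46.2% and 24.9% without a scaling factor). PPP1R15A, which encodes GADD34 and restores translation by removing the phosphate from eIF2 alpha, had 214, 205 and 207 CPM with NTX301, against 46.5, 46 and 42.7 CPM with DMSO. It was 4.63-fold higher (log2 2.21 ± 0.04, edgeR adjusted p = 2.2e-11). DDIT3, the stress factor CHOP, had 54.8, 50.7 and 54.3 CPM with NTX301, against 17.1, 16.2 and 16.7 CPM with DMSO (log2 1.68 ± 0.05, edgeR adjusted p = 2.3e-10). ATF3, a stress-induced factor that other stress routes also raise, had 23.1, 19.3 and 20.9 CPM with NTX301, against 4.55, 4.17 and 3.76 CPM with DMSO (log2 2.34 ± 0.10).

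The genes for the sensor, its substrate and its main factor did not move together. EIF2AK3, the sensor PERK, had 29.6, 31.6 and 29.8 CPM with NTX301, against 41.8, 40.9 and 44.5 CPM with DMSO (log2 -0.48 ± 0.05, edgeR adjusted p = 4.7e-06). EIF2S1, which encodes eIF2 alpha and is named here after its values were seen, had 208, 205 and 206 CPM with NTX301, against 115, 117 and 104 CPM with DMSO, and it rose (log2 0.88 ± 0.04, edgeR adjusted p = 7.6e-09). ATF4, the factor whose translation PERK favours, had 133, 136 and 130 CPM with NTX301, against 175, 172 and 160 CPM with DMSO (log2 -0.34 ± 0.04), and on log2(TPM + 1) it was -0.13 and not past the threshold (limma adjusted p = 0.0584, and 0.0685 on log2(TPM + 0.1)). TRIB3, a pseudokinase induced by ATF4 and CHOP, was not called (log2 0.08 ± 0.07, edgeR adjusted p = 0.2845), but was higher without a scaling factor (log2 0.29). At that scaling the median of all genes tested was 0.21. ASNS, the asparagine synthetase, had a log2 fold change of -0.91 ± 0.08 and VLDLR, a lipoprotein receptor, -0.65 ± 0.05. DDIT4, an inhibitor of mTOR signalling, had 28.8, 28.2 and 29.2 CPM with NTX301, against 96.2, 90.6 and 89.2 CPM with DMSO, the lowest fold change of the list (log2 -1.68 ± 0.05).

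Of 17 other regulators, 6 rose and 9 fell, with a median of -0.10. The share that rose, 35.3%, was near the 35.4% of all genes tested, and 52.9% fell, against 35.1%. Without a scaling factor, 9 rose and 6 fell, and the median was 0.11. Over all genes at that scaling, 46.2% rose and 24.9% fell. MBTPS1, the site-1 protease that makes the first cut in ATF6 and in the sterol factors, had 158, 163 and 163 CPM with NTX301, against 346, 349 and 343 CPM with DMSO (log2 -1.10 ± 0.04, edgeR adjusted p = 2.7e-10). TRAF2, an adaptor of IRE1 signalling, and CREB3L2, a factor related to ATF6, changed by -0.51 ± 0.05 and -0.42 ± 0.05. CREB3, another such factor, rose by 0.61 ± 0.05. NFYB, a subunit of the factor that binds CCAAT, rose by 0.38 ± 0.05 and RTCB, the ligase that joins spliced XBP1, by 0.30 ± 0.05. In TPM the arms of CREB3L2 overlapped, at 18.7 ± 2.19 with NTX301 and 21.6 ± 0.563 with DMSO (SD, n = 3 each).

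Further lists of ER genes outside the 36 held both called directions. Over all genes tested, 35.1% fell and 35.4% rose (24.9% and 46.2% without a scaling factor). Of 35 further folding genes, 16 fell and 9 rose (45.7% and 25.7%), with a median of -0.12. Without a scaling factor 15 fell and 16 rose, with a median of 0.08. MOGS and MLEC, which trim and bind glucosylated glycans, had log2 fold changes of -1.09 ± 0.05 and -1.01 ± 0.05, and PPIB, a proline isomerase, -0.86 ± 0.05. SERPINH1, the collagen chaperone HSP47, rose to 423, 425 and 431 CPM with NTX301, against 234, 236 and 232 CPM with DMSO (log2 0.87 ± 0.04, edgeR adjusted p = 1.3e-09), and CLGN and TMX3 by 0.52 ± 0.08 and 0.39 ± 0.05. Of 30 further degradation genes, 18 fell and 6 rose (60% and 20%), with a median of -0.41 (16 and 12 without a scaling factor, median -0.21). Among them, the mannosidases MAN1B1 and MAN1A1 changed by -1.33 ± 0.05 and -1.13 ± 0.04 and the ligase MARCHF6 by -0.91 ± 0.04, while UFD1, AUP1 and FAF2, which act with or recruit p97 and ubiquitin enzymes, rose by 0.63 ± 0.08, 0.48 ± 0.05 and 0.35 ± 0.04.

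Of 33 further genes of the translocon, signal peptidase, signal recognition particle and glycosylation, 12 fell and 12 rose, with a median of -0.08. The share in each direction, 36.4%, was near that of all genes tested (35.1% lower and 35.4% higher). Without a scaling factor 8 fell and 16 rose, with a median of 0.13, again near the shares of all genes (24.9% lower and 46.2% higher). SSR2, another TRAP subunit, changed by -0.92 ± 0.05, the signal peptidase subunit SPCS3 by -0.74 ± 0.05 and the oligosaccharyltransferase subunit DDOST by -0.61 ± 0.05. SEC61A2, another form of the pore, rose by 0.77 ± 0.12, and SRPRB and SRP19 of the targeting machinery by 0.46 ± 0.05 and 0.45 ± 0.04. Of 35 genes of ER exit and retrieval, 25 fell and 4 rose (71.4% and 11.4%), with a median of -0.36 (19 and 11 without a scaling factor, median -0.15). KDELR1 and KDELR3, receptors that return escaped ER proteins such as BiP, changed by -0.82 ± 0.04 and -0.78 ± 0.07, and the coat subunit SEC24D by -0.77 ± 0.05. The coat subunit SEC23B, the exchange factor PREB and ARFGAP3 rose, by 0.45 ± 0.04, 0.30 ± 0.04 and 0.36 ± 0.08.

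**Figure D5:**
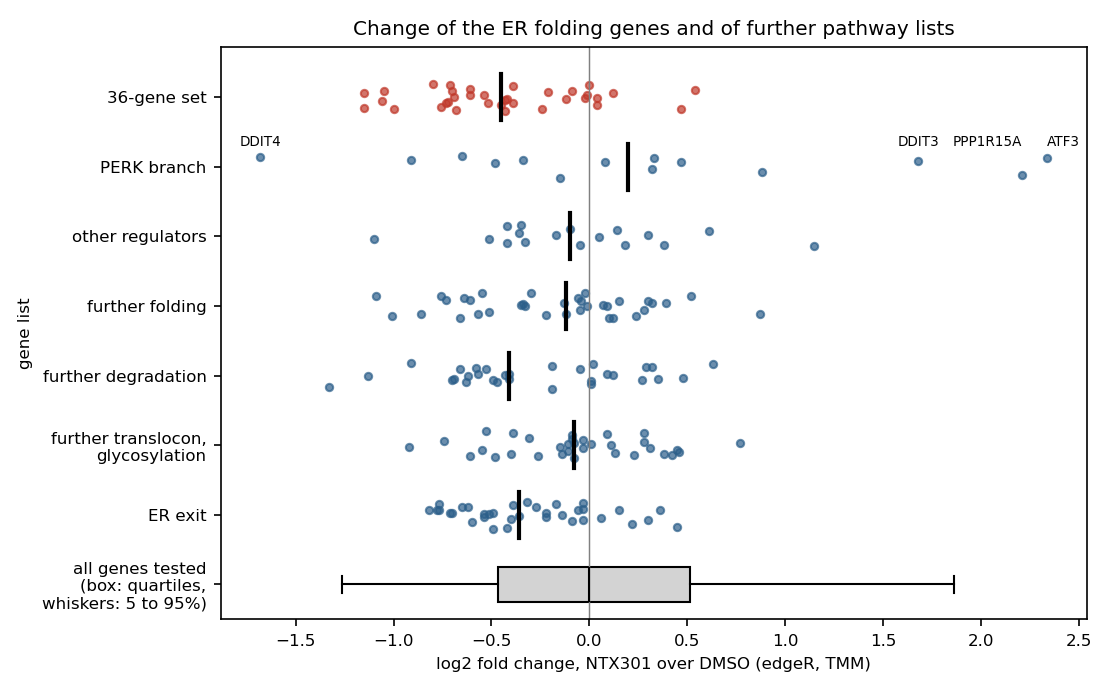
Log2 fold change, NTX301 over DMSO, of each tested gene in the 36-gene set (red) and in 6 further lists (blue), with a black bar at each median; the box gives the quartiles of all genes tested and its whiskers the 5th to 95th percentile. The 36-gene set has a median of -0.45, the PERK branch one of 0.20 with PPP1R15A, DDIT3 and ATF3 far to the right.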

How the data were processed

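RNA of 6 OVCAR5 libraries was sequenced, 3 per treatment, grouped and numbered as labelled. The 10 nM dose and the methylation arrays that the labels mention were not analysed here. The authors deposited 1 table per library with the columns of RSEM, per the file headers; the deposited expected counts estimate each gene's reads without normalization, and the deposited TPM values are divided by length and scaled to a fixed total. The deposited lengths, in bases, are means over a gene's transcripts weighted by abundance. The genome build, tool versions and strand setting were not given in the sources used here. In 16 of the 36 genes another tested gene lies on the other strand, and whether reads of both were kept apart is not known.

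The 47 pseudoautosomal entries of chromosome Y were added to their X copies. Expected counts were rounded and tested with edgeR 4.0.16 in R 4.3.3 (filterByExpr, TMM factors of 0.9206 to 1.0834, glmQLFit and glmQLFTest with treatment as the only term), and p-values were adjusted over 19029 genes. Standard errors are the absolute log2 fold change over the square root of F. On simulated counts over 17815 genes, 76.8% of 95 genes changed by 1.5-fold and 93.3% of 90 genes changed by 2-fold were recovered, with 7 false calls. That simulation used 1 fixed spread and changed far fewer genes than the 70.5% called here, so its rates may not carry over. Libraries of a treatment differed beyond sampling noise (chi-square over its degrees of freedom, 2.37 to 6.57), so none was taken for a duplicate. DESeq2 1.42.0 and limma 3.58.1 gave alternatives. Symbols came from a table of gene names and positions from GENCODE 29, by stable identifier. All 36 genes are named. Of each further list, up to 3 risen and 3 fallen genes with the largest fold are named, among called genes of at least 5 CPM on average whose arms do not overlap, plus 6 fixed PERK branch genes. The genes and lists were chosen with earlier results of these data known. Promoter sequences are from RefSeq (GRCh38.p14). The planned look at protein ends and active sites was not run.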

Additional observations from a re-analysis of the deposited data

How the results depend on the processing

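The 14 alternatives were other scalings, tools, units and filters, the replicate block and each library left out. Without a scaling factor, 9 members were higher and 23 lower, 2 higher and 6 lower by 1.5-fold; on log2(TPM + 1) these were 7, 22, 2 and 5, and on log2(TPM + 0.1) 6, 20, 2 and 5. Those TPM fits called 4273 and 4178 of all genes lower, against 6677. With at least 5 CPM on average, 1 member was higher by 1.5-fold. With libraries left out in turn, the members higher by 1.5-fold numbered 0 to 1 (1 without DMSO replicate 1, where SELENOS was 0.60 on the log2 scale), the members higher 3 throughout and the members lower 26 to 27.

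Small log2 fold changes turned sign with the scaling, whose construction shifts all genes by about 0.21. UGGT1 was 0.09 without a scaling factor and on both TPM scales. DNAJB11 was 0.11 without a factor and 0.12 on both TPM scales, and MANF 0.00 on both. DERL1 was 0.20 without a factor, 0.12 on both TPM scales and 0.04 with at least 5 CPM. DERL2 was 0.18, 0.26 on log2(TPM + 1), 0.27 on log2(TPM + 0.1) and 0.02 with at least 5 CPM. SEC61B was 0.21 without a factor, 0.21 and 0.22 on the TPM scales, 0.05 with at least 5 CPM, 0.00 in DESeq2, limma-voom and the replicate block, and -0.10 to 0.07 with libraries left out. DNAJB9 ranged from -0.00 to 0.08 with libraries left out.

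Correlations of the deviations of same-numbered libraries were 0.106, 0.003 and 0.074, not all over 0.1, so the numbers were not taken as pairs. With the replicate block 27 members were lower and 3 higher, 15 lower and 0 higher by 1.5-fold, and 6749 lower and 6837 higher of all genes.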
